A study of Homo sapiens with 4 samples.

Results

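The GALNT genes encode polypeptide N-acetylgalactosaminyltransferases, Golgi enzymes that start mucin-type O-glycans. Measured here were 10 of them, GALNT1, GALNT2, GALNT3, GALNT4, GALNT6, GALNT7, GALNT10, GALNT11, GALNT12 and GALNT13, each found by its symbol among the 60662 genes of the count table. They were chosen by name and function with their counts and KO over WT fold changes in these libraries already known, so their values and calls are given as a description. The table holds 11 more GALNT rows, which are given beside them.

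HAP1 cells were used, an established human line with a nearly haploid genome that traces back to KBM-7, a line from a chronic myeloid leukaemia. The MATR3 knockout (KO) group was 1 library each of the purchased clones 1 and 5, and the wild-type (WT) group was 2 libraries of clone 4, called A and B here. MATR3 encodes matrin 3, a nuclear protein that binds RNA and DNA. The labels name no treatment in either group. Total RNA was copied to cDNA, amplified by PCR and sequenced as long reads on a MinION nanopore instrument. Each KO clone has 1 library, so a value particular to a clone has no replicate. Separate cultures are not named for WT A and B. The p-values therefore rest on the spread between the KO clones together with a spread between WT libraries that may be technical. Column names put both KO libraries on a later date than both WT libraries, and effects of date and of genotype therefore cannot be told apart. What the tags FACS (A) and test (B) on the WT columns mean is not stated by the labels.

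Library totals were 3121759 counts for KO clone 1, 4024026 for KO clone 5, 3509906 for WT A and 5303199 for WT B. Levels are in CPM, the depth-scaled count after TMM normalisation, and 3 counts, the limit that a count of 0 allows, corresponded to 0.559 to 0.921 CPM. MATR3 counts did not check the KO labels, since reads of an edited transcript can still be counted: its main gene model had a log2 fold change of 0.03 (SE 0.28). Of 10 haematopoietic markers 6, among them PTPRC and CD34, had 0 counts in every library. The summed level of the list was 43.9 and 36.2 CPM in KO clones 1 and 5, against 17.6 and 20.3 CPM in WT A and B. GATA2 made up most of it, at 29.2 and 23.8 CPM in KO clones 1 and 5 and 13.4 and 16.0 CPM in WT A and B. RUNX1 and MYB were also higher in both KO clones than in both WT libraries. The 7 epithelial markers summed to 49.7 and 88.5 CPM in KO clones 1 and 5. In WT A and B they summed to 21.1 and 24.2 CPM. Most of each sum was KRT8. EPCAM went the other way, at 1.23 and 1.29 CPM in KO clones 1 and 5 and 2.68 and 2.61 CPM in WT A and B. KRT19 and CLDN4 had at most 1 count in any library, and 1 marker, KRT5, was at 0 throughout. Of 8 fibroblast markers 5 had 0 counts, with sums of 6.14 and 3.36 CPM in KO clones 1 and 5 and 3.27 and 5.41 CPM in WT A and B. The part of these markers in the results below was not tested.

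Mucin-type O-glycosylation begins when a GALNT enzyme moves N-acetylgalactosamine from UDP-GalNAc to a serine or threonine of a protein passing through the Golgi. The family is large because its members prefer different peptides, and some prefer peptides that already carry a GalNAc. The first sugar is then extended by C1GALT1, which needs the chaperone C1GALT1C1, branched by GCNT enzymes and capped with sialic acid. These glycans cover mucins and the stalks of many membrane proteins, and they can shield sites from proteases.

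In the KO clones GALNT13 was not detected, while no difference between KO and WT was called for the more abundant members. GALNT2, GALNT1 and GALNT6 supplied most of the members' counts in KO and WT libraries. Outside the 10 members, GALNT18 was lower in both KO clones. Of the 10 members 6 had enough counts to be tested, 0 were called higher and 1 lower at an adjusted p under 0.05 (edgeR quasi-likelihood test, Benjamini-Hochberg over 10505 genes), against a background of 1.58% of all tested genes called higher and 0.609% called lower. GALNT13 passed the count filter through the WT libraries alone, so nothing is read from this count. The median log2 fold change of the 6 was 0.06 whether GALNT13 was entered at its fitted value or at its bound, beside 0.00 over all tested genes.

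**Figure D1:**
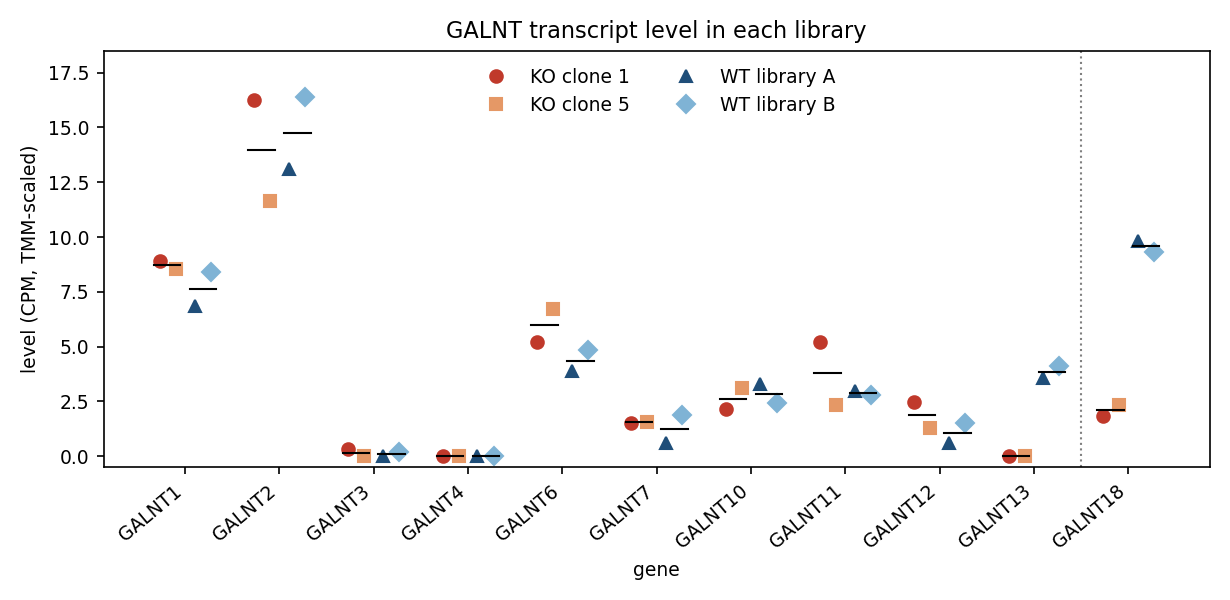
Level in CPM (vertical axis) of the 10 members and, right of the dotted line, GALNT18, with 1 marker per library (KO clones left, WT libraries right) and short lines at the group means. GALNT13 lies at 0 in both KO clones and at 3.57 and 4.10 CPM in WT A and B, and GALNT18 is lower in both KO clones, while KO and WT levels of GALNT2, GALNT10 and GALNT11 overlap.

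GALNT13, an initiating enzyme best known from neural tissue and a near relative of GALNT1, had 0 counts in both KO clones, against 12 and 22 counts in WT A and B. The groups did not overlap. GALNT13 averaged 0 CPM in KO clones and 3.84 ± 0.376 CPM in WT libraries (SD, n = 2 each), at least 9.25-fold lower in KO when 3 counts over both clones are taken as the floor, with an edgeR adjusted p of 0.0116. The fitted log2 fold change of -6.95 depends on the prior count and is no bound. The call ended without any scaling factor (edgeR adjusted p = 0.0583), and without WT B the gene, at 12 counts in all, fell under the filter and was not tested. Because PCR copies of 1 molecule are counted separately, the floors and counting intervals hold for counting error alone. The fold given against the floor also takes the WT counts as exact. In bulk RNA, fewer cells with a transcript and less transcript per cell cannot be told apart.

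GALNT13 (ENSG00000144278.15) lies on the plus strand of chromosome 2 (hg38, GENCODE 44) from 153871922 to 154453979, a span of 582 kb with 13 exons in its canonical transcript of 5657 bases. RefSeq places its starts farther upstream, 394 and 804 kb before the GENCODE start. Of the 10 members 8 had promoters in the RefSeq table (GRCh38.p14), each window running from 250 bases before a start to 50 bases after it. The windows of the GALNT13 starts are shown because the gene was not detected in KO, and that of GALNT2 because it was the most abundant member. Capitals mark each CG dinucleotide, the site of DNA methylation in human cells, and all are on the plus strand, at chr2:153068043-153068342, chr2:153477651-153477950 and chr1:230066988-230067287.
GALNT13 outer start: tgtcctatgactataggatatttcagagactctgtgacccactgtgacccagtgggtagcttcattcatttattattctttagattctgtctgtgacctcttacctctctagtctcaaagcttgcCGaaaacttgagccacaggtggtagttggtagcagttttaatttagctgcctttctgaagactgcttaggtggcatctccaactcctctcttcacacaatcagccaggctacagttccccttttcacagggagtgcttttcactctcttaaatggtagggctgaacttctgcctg
GALNT13 inner start: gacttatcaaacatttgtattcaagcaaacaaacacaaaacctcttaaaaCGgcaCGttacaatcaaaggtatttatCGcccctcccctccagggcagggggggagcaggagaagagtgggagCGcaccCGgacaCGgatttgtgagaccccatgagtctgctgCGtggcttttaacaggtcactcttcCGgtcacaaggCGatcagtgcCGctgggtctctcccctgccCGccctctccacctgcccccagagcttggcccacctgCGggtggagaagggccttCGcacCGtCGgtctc
GALNT2 start: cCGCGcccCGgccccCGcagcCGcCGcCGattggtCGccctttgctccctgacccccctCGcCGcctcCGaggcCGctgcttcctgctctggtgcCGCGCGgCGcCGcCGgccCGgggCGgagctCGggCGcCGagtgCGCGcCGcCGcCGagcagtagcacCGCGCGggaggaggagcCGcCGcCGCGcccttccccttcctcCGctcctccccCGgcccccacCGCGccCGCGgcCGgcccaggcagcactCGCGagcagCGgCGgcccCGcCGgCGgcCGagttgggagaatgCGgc
The outer GALNT13 window held 1 CG and the inner one 15, while that of GALNT2 held 51, and the median over 35116 RefSeq promoters was 14. More CG than in the GALNT2 window is rare, since 99.0% of promoters held fewer than 51, whereas 51.1% held fewer than 15 and 3.96% held none. The TATA box letters TATAAA were in 0 of these 3 windows on either strand, beside 11.5% of all promoters. The GC box letters GGGCGG occurred 1 time in the GALNT2 window and 1 time in the inner GALNT13 window, beside 45.0% of all promoters with at least 1, and the letters CCAAT occurred 1 time in the GALNT2 window, beside 34.6% of all promoters. The windows of other members held 2 CG for GALNT11, 23 for GALNT7, 28 for GALNT3, 29 for GALNT12 and 51 for GALNT10. Those of GALNT1 held 9, 50 and 62. Methylation and binding were not measured, so these are descriptions of the letters in the windows.

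The inner GALNT13 start lies inside RPRM, a gene of the opposite strand from 153477338 to 153478762 that encodes reprimo, a protein linked to p53-dependent cell cycle arrest. RPRM had 5 and 1 counts in KO clones 1 and 5, against 12 and 14 counts in WT A and B, too few to test. KCNJ3, an inwardly rectifying potassium channel gene 0.826 Mb downstream, had 0 counts in both KO clones and 2 and 1 in WT A and B. These were the genes with a count among 8 placed within 1 Mb of the GALNT13 start, the other 6 being listed at 0. Both were lower in each KO clone than in each WT library by CPM, beside 22.8% of all tested genes. Neither was tested, and the KCNJ3 counts were within the 3 counts that a count of 0 allows, so nothing is read from this. The labels do not state whether counting used strand, and reads of GALNT13 and RPRM over the stretch that the RefSeq model shares might not be told apart.

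Within 5 Mb of the GALNT13 start, a window chosen after the values were seen, 18 genes were tested, of which 0 were called higher and 1 lower, beside 1.58% and 0.609% of all tested genes, with 8 fold changes above and 10 below 0 and a median log2 fold change of -0.04. The lower one was the noncoding gene ENSG00000288066.1, 2.08 Mb upstream, with 6 and 18 counts in KO clones 1 and 5 and 36 and 70 in WT A and B (log2 fold change -1.84, SE 0.43, edgeR adjusted p = 0.0393). Its call ended without KO clone 1 (-1.35, edgeR adjusted p = 0.142), without WT B, with limma-voom and without scaling. On the upstream side ARL6IP6 had a log2 fold change of -0.04 (SE 0.34). On the downstream side the nearest tested gene was NR4A2, an orphan nuclear receptor, at 0.50 (SE 0.41). GALNT5, another initiating enzyme, lies 3.39 Mb downstream in this window. It had 0 counts in both KO clones, against 5 and 2 in WT A and B, too few to test. With 3 counts over both clones as the floor, GALNT5 was at least 1.90-fold lower in KO. That bound holds for counting error alone and takes the few WT counts as exact.

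**Figure D2:**
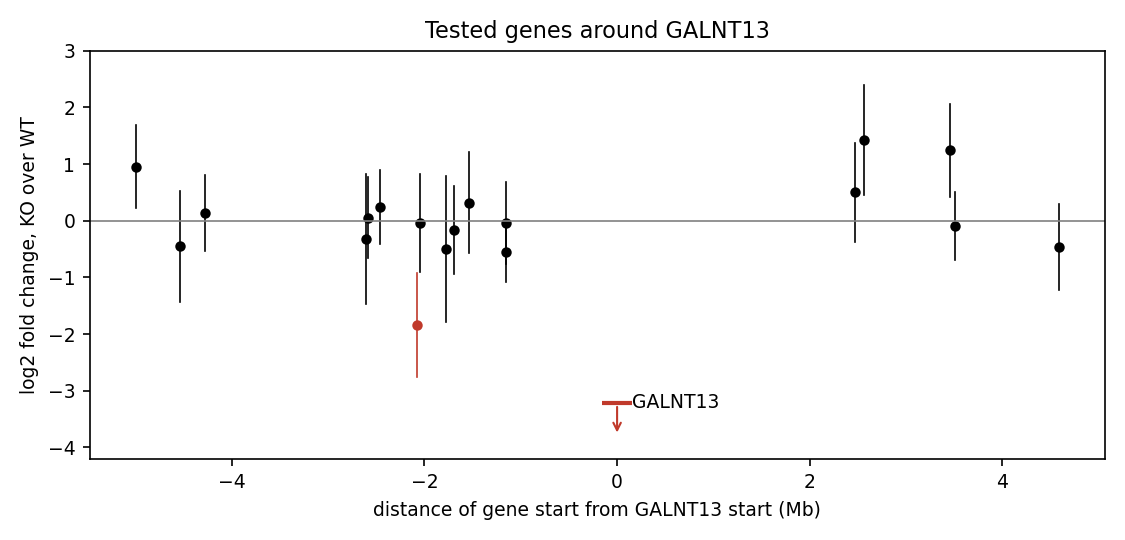
Log2 fold change of KO over WT (vertical axis, bars are 95% intervals from the edgeR fit) for the 18 tested genes whose start lies within 5 Mb of the GALNT13 start, by distance in Mb (horizontal axis). GALNT13 is drawn at its bound of -3.21 with an arrow, since KO had 0 counts, and ENSG00000288066.1, in red, is the only called gene among the 18, while the other 17 are not called.

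By the distance between log2(CPM + 1) profiles over the 4 libraries, each centred on its mean, the 3 tested genes nearest to GALNT13 were PCDH9, a protocadherin, EPHA3, an ephrin receptor, and the unplaced gene AC093580.1, at distances of 0.306, 0.343 and 0.365. PCDH9 had 4 and 4 counts in KO clones 1 and 5 and 23 and 43 in WT A and B. EPHA3 had 1 and 2 counts in KO clones 1 and 5 and 14 and 26 in WT A and B. The profiles rest on 4 libraries and were matched on the KO and WT difference itself, so their fold changes are no further evidence.

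GALNT2 was the most abundant member in every library. It encodes a broadly expressed initiating enzyme whose known substrates include apolipoprotein C-III, and it lies on chromosome 1 from 230057990 to 230282122. It had 53 and 45 counts in KO clones 1 and 5, or 16.3 and 11.6 CPM, against 44 and 88 counts in WT A and B, or 13.1 and 16.4 CPM. The KO and WT levels overlapped, with a log2 fold change of -0.10 (SE 0.32, 95% interval -0.79 to 0.59, with adjusted p = 0.918 from edgeR). It was the only member in the authors' deposited table of comparisons, which gives a log2 fold change of -0.09 (SE 0.52) and an adjusted p of 0.983. The direction of that table is not labelled, and its fold changes have the sign of KO over WT computed here for 6437 of 6479 genes, while its score has the opposite sign for 6478 of them and was not used.

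GALNT1, the other broadly expressed initiating enzyme and the closest in kind to GALNT13, lies on chromosome 18 from 35581117 to 35711834. It had 29 and 33 counts in KO clones 1 and 5, or 8.90 and 8.54 CPM, against 23 and 45 counts in WT A and B, or 6.84 and 8.39 CPM. Both KO levels lay above both WT levels, and no difference was called (log2 fold change 0.18, SE 0.34, 95% interval -0.56 to 0.92, edgeR adjusted p = 0.838). Both KO levels lay above both WT levels in 2 of the 6 tested members, GALNT1 and GALNT6, beside 25% of all tested genes, and below them in 1, GALNT13, beside 22.8%, so a separation without overlap is common in these libraries.

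GALNT6, an initiating enzyme related to GALNT3 and studied in breast tumours, had 17 and 26 counts in KO clones 1 and 5, or 5.22 and 6.73 CPM, against 13 and 26 counts in WT A and B, or 3.87 and 4.85 CPM. Its KO and WT levels did not overlap either, and its log2 fold change of 0.44 (SE 0.40, 95% interval -0.42 to 1.30) was not called (edgeR adjusted p = 0.623). The gene overlaps SLC4A8 on the opposite strand over 1551 bases of chromosome 12. GALNT3, which protects the hormone FGF23 from cleavage, had 1 count in KO clone 1, 0 in KO clone 5, 0 in WT A and 1 in WT B.

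GALNT11, which glycosylates linkers between the repeats of LDL receptor family proteins, was the member in which the KO clones differed most among those tested. It had 17 and 9 counts in KO clones 1 and 5, or 5.22 and 2.33 CPM, against 10 and 15 counts in WT A and B, or 2.97 and 2.80 CPM. KO clone 1 stood above both WT libraries and KO clone 5 below both. The level in KO clone 1 was 2.24-fold that in KO clone 5, with a 95% exact counting interval of 0.945 to 5.71, and each clone has 1 library. The log2 fold change of the group was 0.36 (SE 0.51, 95% interval -0.73 to 1.45, with adjusted p = 0.769 from edgeR), and without KO clone 1 it was -0.30.

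The members that favour peptides already carrying GalNAc were at low levels. GALNT10 had 7 and 12 counts in KO clones 1 and 5, or 2.15 and 3.10 CPM, against 11 and 13 counts in WT A and B, or 3.27 and 2.42 CPM. Its groups overlapped, with a log2 fold change of -0.07 (SE 0.51, 95% interval -1.16 to 1.02, with adjusted p = 0.968 from edgeR), and it shares 29749 bases of its span with MFAP3 on the same strand, between which reads could be split. GALNT7 had 5 and 6 counts in KO clones 1 and 5 and 2 and 10 in WT A and B. GALNT12, known from the gut, had 8 and 5 counts in KO clones 1 and 5 and 2 and 8 in WT A and B.

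Both GALNT7 and GALNT12 were under the count filter and were not tested. The ratio of KO over WT counts at equal depth was 1.12 for GALNT7, with a 95% exact counting interval of 0.449 to 2.78. For GALNT12 it was 1.59, with an interval of 0.645 to 4.06. These intervals cover counting error alone and are not limits of detection. GALNT4, which prefers glycopeptides as well, had 0 counts in all 4 libraries. It has 1 exon and lies wholly inside POC1B and the read-through gene POC1B-GALNT4 on the same strand, so reads of it could have been left uncounted or assigned elsewhere. The read-through gene also had 0 counts in every library, and POC1B had 6 and 4 counts in KO clones 1 and 5 and 5 and 11 in WT A and B.

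**Figure D3:**
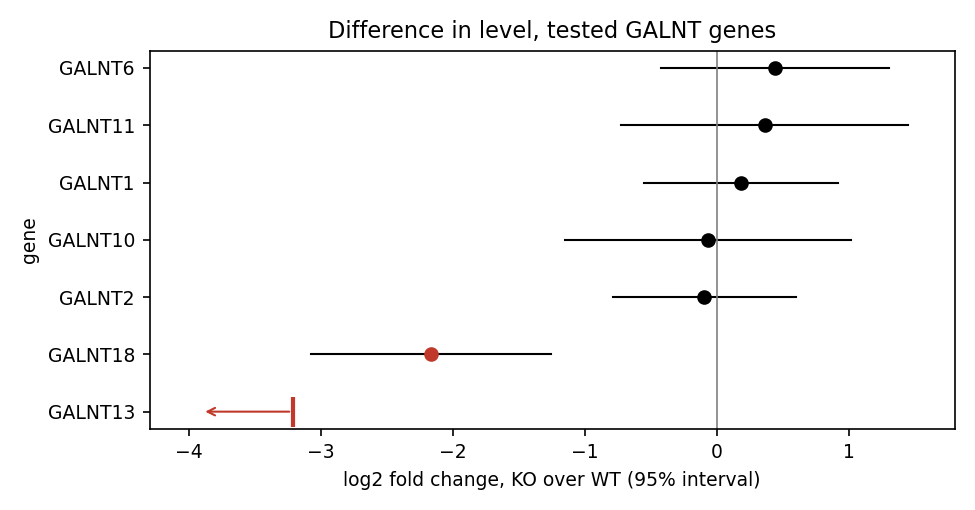
Log2 fold change of KO over WT (horizontal axis) for the 7 GALNT genes tested, with 95% intervals from the edgeR fit; red marks a call at an adjusted p under 0.05. GALNT13 is drawn at its bound of -3.21 with an arrow and GALNT18 lies at -2.17, while the intervals of the other 5 include 0.

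Among the 11 other GALNT rows 1 was tested and it was called lower. Like GALNT13, it passed the count filter through the WT libraries alone, with 0 KO clones and 2 WT libraries at the cutoff, so nothing is read from this count either. GALNT18 belongs to a subfamily with GALNT8, GALNT9 and GALNT17 whose transferase activity is less well characterised. It had 6 and 9 counts in KO clones 1 and 5, against 33 and 50 counts in WT A and B. The groups did not overlap: GALNT18 averaged 2.09 ± 0.344 CPM in KO clones and 9.57 ± 0.350 CPM in WT libraries (SD, n = 2 each). Its log2 fold change was -2.17 (SE 0.42, with adjusted p = 0.0197 from edgeR). The call ended without any scaling factor (edgeR adjusted p = 0.0651). DESeq2 gave GALNT18 no adjusted p and an unadjusted p of 0.00280, and with a mean of at least 50 counts required it was not tested. By the distance between profiles its nearest tested genes were TMEFF2, AC027031.2 and ZCCHC12, at 0.147, 0.189 and 0.242.

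GALNT18 lies on the minus strand of chromosome 11 from 11270877 to 11622005. Of 18 genes placed within 1 Mb of its start 6 were tested, 0 were called, and their log2 fold changes ran from -0.61 for CTR9, a subunit of the PAF1 complex that acts in transcription elongation, to 0.73 for the antisense gene ZBED5-AS1. The nearest tested gene, the deubiquitinase gene USP47, had -0.22 (SE 0.37). The remaining GALNT rows were hardly measured. GALNT14 had 0 and 0 counts in KO clones 1 and 5 and 3 and 0 in WT A and B, GALNT16 had 1 and 0 counts in KO clones 1 and 5 and 2 and 3 in WT A and B, and GALNTL6 had 0 counts in both KO clones and 1 and 2 in WT A and B. GALNT8 and GALNT9 had at most 1 count in any library, and GALNT15, GALNT17 and GALNTL5 had 0 in all 4.

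The summed level of the 10 members overlapped between the groups, at 42.1 and 35.2 CPM in KO clones 1 and 5 against 34.8 and 42.5 CPM in WT A and B. With the 11 other rows added the sums were 44.5 and 37.5 CPM in KO clones 1 and 5 and 48.2 and 53.5 CPM in WT A and B, which did not overlap. Most of what these rows added was GALNT18, at 1.84 and 2.33 CPM in KO clones 1 and 5 and 9.82 and 9.32 CPM in WT A and B. The make-up of the sum differed as well. GALNT13 and GALNT18 together held 4.14% of the GALNT counts in KO clone 1 (95% exact binomial interval 1.53 to 8.79) and 6.21% in KO clone 5 (2.88 to 11.5), against 27.8% in WT A (21.0 to 35.3) and 25.1% in WT B (20.2 to 30.5). These genes were singled out because they were lower. The shares, and the sums that include GALNT18, therefore describe the libraries and are no further test.

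GALNT2 held 36.6% and 31.0% of the GALNT counts in KO clones 1 and 5 and 27.2% and 30.7% in WT A and B. GALNT1 held 20.0% and 22.8% in KO clones 1 and 5, against 14.2% and 15.7% in WT A and B. A share rises when other members fall, and the GALNT1 level itself was not called different. Per kb of the canonical transcript the order of the mean WT levels was GALNT18 at 3.82 CPM per kb, GALNT2 at 3.33, GALNT1 at 1.92, GALNT11 at 1.05, GALNT6 at 0.821 and GALNT13 at 0.678. In KO clones the order was GALNT2 at 3.16 CPM per kb, GALNT1 at 2.20, GALNT11 at 1.38, GALNT6 at 1.13 and GALNT18 at 0.833. This order rests on the division by length, and since a nanopore read can span a whole transcript, the undivided level is given too: it averaged 2.09 CPM for GALNT18 and 13.96 CPM for GALNT2 in KO clones, against 9.57 CPM for GALNT18 and 14.7 CPM for GALNT2 in WT libraries. GALNT6 and GALNT11 change places without the division, with GALNT6 at 5.97 ± 1.07 CPM and GALNT11 at 3.77 ± 2.04 CPM in KO clones (SD, n = 2 each). Both genes were at 5.22 CPM in KO clone 1, while KO clone 5 had GALNT6 at 6.73 CPM and GALNT11 at 2.33 CPM. In WT libraries GALNT6 was at 4.36 ± 0.693 CPM and GALNT11 at 2.89 ± 0.126 CPM, and GALNT6 was higher in both (SD, n = 2 each).

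**Figure D4:**
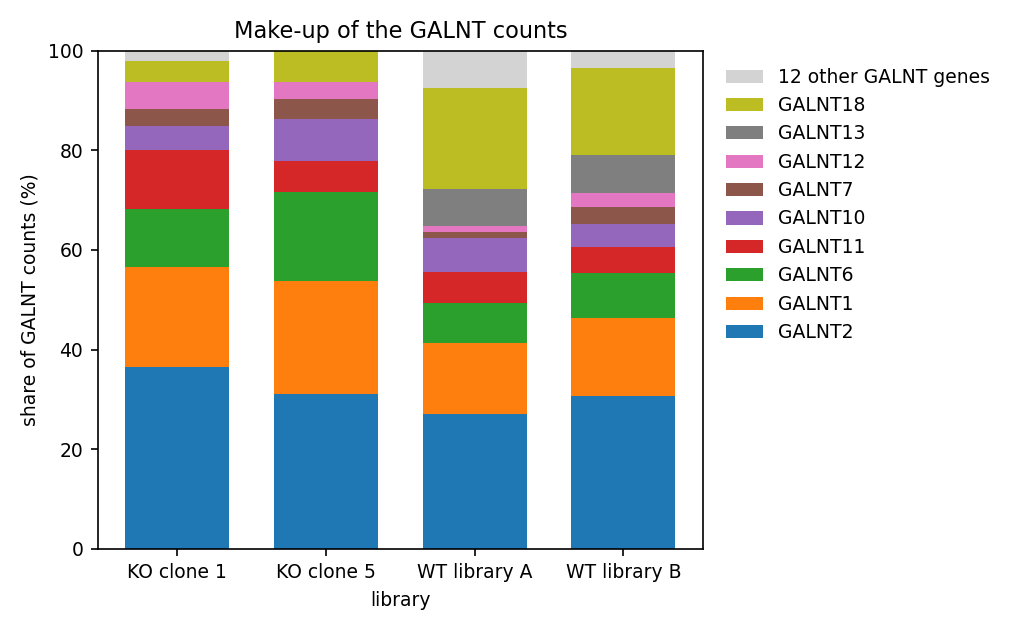
Share in percent (vertical axis) of all counts over the 21 GALNT rows that each gene held in each library, with the KO clones on the left; the top segment sums the 12 rows not named. GALNT13 and GALNT18 together make up 4.14% and 6.21% in KO clones 1 and 5 and 27.8% and 25.1% in WT A and B.

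Genes that act with the GALNT enzymes were taken from 6 lists made from their known functions, and of their 91 genes 68 were tested. No gene of these lists was called, with 0 higher and 0 lower over all genes tested (edgeR), beside a background of 2.19% called in either direction, and 11 had an unadjusted p under 0.05, or 16.2%, beside 16.4% of all tested genes. DESeq2 called 1 of them and limma-voom 0. Without KO clone 5 the count was 8, with 7 higher and 1 lower, without WT B it was 2 and without KO clone 1 it was 1. The 68 genes had a median log2 fold change of 0.14.

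Of 12 enzymes of core extension and branching 7 were tested, with a median log2 fold change of 0.59. B4GALT5, a galactosyltransferase that also makes lactosylceramide, had 79 and 45 counts in KO clones 1 and 5, against 12 and 42 in WT A and B, with log2 fold change 1.58 (SE 0.43, with adjusted p = 0.0824 from edgeR). It passed without KO clone 5 (2.02, edgeR adjusted p = 0.00404), without WT B and without a count filter, whereas it was 0.97 without KO clone 1 (edgeR adjusted p = 0.372) and 1.19 without WT A (edgeR adjusted p = 0.294). B4GALT4 and B4GALT1, further galactosyltransferases, had 1.07 (SE 0.45) and 0.59 (SE 0.33), and GCNT1, which makes the core 2 branch, had -1.11 (SE 0.55). With single libraries left out B4GALT4 lay between 0.46 without KO clone 1 and 1.93 without WT B. C1GALT1, which adds galactose to the first GalNAc, had 4.91 and 4.92 CPM in KO clones 1 and 5 and 6.25 and 6.34 CPM in WT A and B, a log2 fold change of -0.36 (SE 0.38, with adjusted p = 0.689 from edgeR). Its chaperone gene C1GALT1C1 had 0.08 (SE 0.29, with adjusted p = 0.932 from edgeR).

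Of 10 sialyltransferases 5 were tested, with a median log2 fold change of -0.25. ST6GALNAC4, which adds sialic acid to the GalNAc of core 1 that is already sialylated, had 41 and 74 counts in KO clones 1 and 5, against 83 and 135 in WT A and B, a log2 fold change of -0.64 (SE 0.31, with adjusted p = 0.324 from edgeR). ST3GAL1, which sialylates the galactose of core 1, had -0.55 (SE 0.33), ST3GAL4 had -0.25 (SE 0.34) and ST3GAL2 had 0.44 (SE 0.33).

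All 17 genes of nucleotide sugar supply were tested, with a median log2 fold change of 0.13. GFPT2, an enzyme of the first step of the hexosamine pathway toward UDP-GlcNAc, had 7 and 12 counts in KO clones 1 and 5, against 24 and 48 in WT A and B, with log2 fold change -1.60 (SE 0.43, with adjusted p = 0.0729 from edgeR). It passed without KO clone 5 (-1.91, edgeR adjusted p = 0.0389) and without a count filter, whereas it was -1.38 without KO clone 1 (edgeR adjusted p = 0.222). The sialic acid synthesis genes GNE and NANP had 0.72 (SE 0.32) and 0.68 (SE 0.33), and GNE passed without KO clone 5 (1.06, edgeR adjusted p = 0.0141) but was 0.27 without KO clone 1 (edgeR adjusted p = 0.788).

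Of 17 enzymes that start other kinds of protein O-glycan 14 were tested, with a median of 0.20. OGT, which adds single GlcNAc residues to nuclear and cytosolic proteins, had 89.6 and 82.0 CPM in KO clones 1 and 5, against 36.0 and 49.6 CPM in WT A and B, a log2 fold change of 1.00 (SE 0.29, with adjusted p = 0.103 from edgeR, 0.0234 without KO clone 5 and 0.718 without WT A). The O-mannosyltransferase genes POMT1 and POMT2 had 0.62 (SE 0.36) and 0.57 (SE 0.47). POGLUT2, an O-glucosyltransferase listed under its older name KDELC1, had -0.59 (SE 0.43), and leaving out KO clone 1 gave -0.047, while leaving out KO clone 5 gave -1.59 (edgeR adjusted p = 0.0511).

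Of 16 genes of Golgi retention and ion supply 14 were tested, with a median of 0.02. GOLGA2, the matrix protein GM130, had 115 and 74.8 CPM in KO clones 1 and 5, against 55.3 and 55.4 CPM in WT A and B, a log2 fold change of 0.78 (SE 0.30, with adjusted p = 0.209 from edgeR). Without KO clone 5 it was 1.06 (edgeR adjusted p = 0.0141) and without KO clone 1 it was 0.43 (edgeR adjusted p = 0.590). ATP2C1, the calcium and manganese pump of the Golgi, had 0.75 (SE 0.31), the COG complex gene COG2 had -0.95 (SE 0.52) and the golgin gene GOLGB1 had -0.41 (SE 0.33).

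Of 19 proteins known to carry such glycans 11 were tested, with a median of 0.30. CD164, a sialomucin, had 94.9 and 102 CPM in KO clones 1 and 5, against 53.8 and 46.8 CPM in WT A and B, a log2 fold change of 0.97 (SE 0.28, with adjusted p = 0.100 from edgeR, and 0.0491 with DESeq2), while the authors' deposited table gives an adjusted p of 0.0778. GYPC, a glycophorin of red cell membranes, had 6864 and 3616 counts in KO clones 1 and 5, against 1987 and 5033 in WT A and B, so its groups overlapped by CPM, at 0.99 (SE 0.34, with adjusted p = 0.158 from edgeR, 0.00448 without KO clone 5 and 0.709 without KO clone 1). PODXL, a sialomucin known from podocytes, had -0.96 (SE 0.36), and DAG1, which encodes dystroglycan, had 0.64 (SE 0.30).

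**Figure D5:**
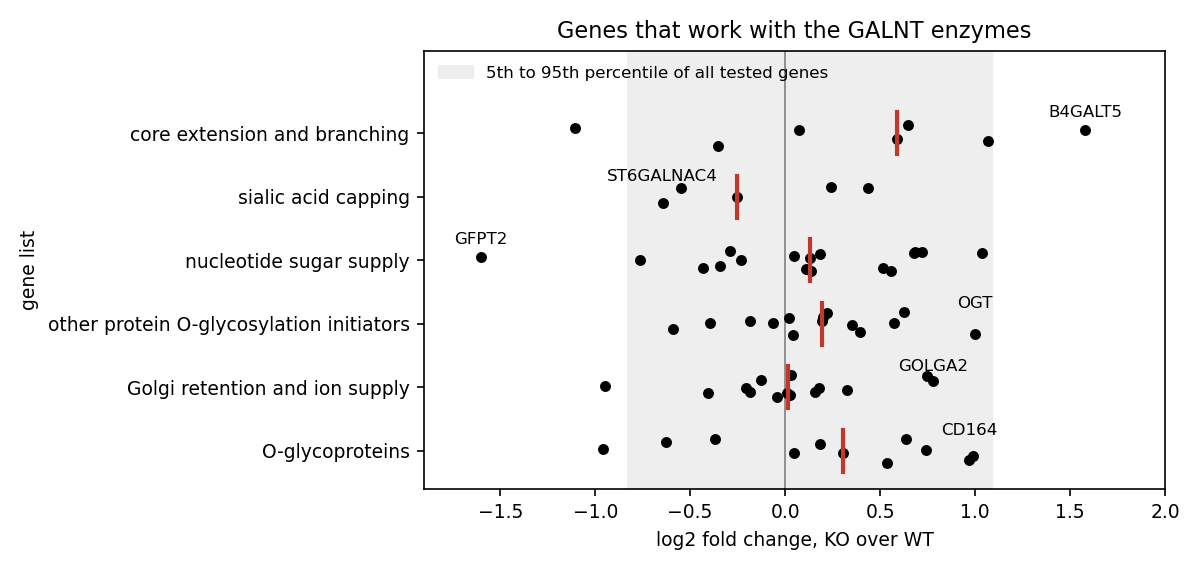
Log2 fold change of KO over WT (horizontal axis) for the 68 tested genes of 6 lists (rows), with a point per gene, a red line at each list's median, the gene with the lowest p named, and grey shading from the 5th to the 95th percentile of all tested genes, -0.82 to 1.09. The medians run from -0.25 for sialic acid capping to 0.59 for core extension and branching, and no point is a call.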

How the data were processed

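The authors deposited read counts per gene, whole numbers with no normalisation, for 4 libraries. A second table that the authors deposited holds a size-factor scaled signal of the same counts and was not used further. The authors' deposited table of comparisons covers 6479 genes and, per the file headers, gives p-values, log2 fold changes and a score. Per the submitters' processing notes minimap2, SAMtools, Subread, DESeq and DESeq2 1.22.2 were used with hg38. Settings, annotation and use of strand: not given in the sources used here. KO columns were matched by clone number, and WT columns, which carry no replicate number, by product number.

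Counts were compared in edgeR 4.0.16 (R 4.3.3) with filterByExpr (minimum count 10, minimum total 15), TMM scaling and a robust two-sided quasi-likelihood F test, adjusted by Benjamini-Hochberg over 10505 genes with a threshold of 0.05, and the script was tested on simulated data. Each SE is the absolute log2 fold change divided by the root of its F statistic. CPM used TMM-scaled sizes over the tested genes. Alternatives were other scalings, other count filters, DESeq2 1.42.0, limma-voom (limma 3.58.1), a log2 fold change of at least 1, mitochondrial genes left out and each library left out.

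Members and lists were chosen with earlier results of these data known. Named were all members, the other GALNT genes, the 4 members of each list with the lowest p, genes within 1 Mb of a called member, the 3 nearest profiles, genes overlapping a member, and MATR3; the neighbours and profiles of GALNT18 and the 5 Mb window were added after values were seen. Positions of 40212 genes came from GENCODE 44. Values of some genes that this rule names are not reported here.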

Additional observations from a re-analysis of the deposited data

How the results depend on the processing

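No paired analysis was possible because the labels name no pairing. The KO libraries are numbered by clone, and the WT columns carry no replicate number. Over all genes, 230 were called, against 31 without any scaling factor, 568 without a count filter, 83 when a mean of 50 counts was required, and 195 to 1035 with single libraries left out (1035 without KO clone 5). Of the members 1 was called, against 0 without scaling, 0 with a mean of at least 50 counts, where 1 member was tested, 0 with DESeq2, which gave GALNT2 alone an adjusted p and GALNT13 an unadjusted p of 0.000605, and 0 to 1 with single libraries left out, 0 being without WT B. Of the pathway genes 0 were called, against 3 without a count filter, 1 with DESeq2 and 0 to 8 with single libraries left out. With single libraries left out the log2 fold changes of these uncalled genes changed sign: GALNT2 ran from -0.35 to 0.12, GALNT10 from -0.38 to 0.15, GALNT11 from -0.30 to 0.85, ST3GAL4 from -0.71 to 0.070, POMT2 from -0.40 to 1.17, USP47 from -0.69 to 0.31 and ARL6IP6 from -0.65 to 0.37. GALNT18, which entered the test through the WT libraries alone, ran from -2.36 to -2.02. Except where fewer genes or libraries entered, the cause of these changes was not tested. GALNT4 and POC1B-GALNT4 summed give no value, since both were at 0. With 2 libraries a side, the counts of the 5 uncalled members leave 95% intervals that reach as far as -1.16 for GALNT10 and 1.45 for GALNT11. Changes inside these intervals remain possible.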
